A study of Homo sapiens with 4 samples.

Results

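The genes described here are 44 members of the Wnt pathway, chosen by symbol from the 61806 genes of the deposited table. They were 13 Wnt ligands, 9 Frizzled receptors, 4 co-receptors and ROR receptors, 7 secreted antagonists, 3 proteins of the destruction complex and beta-catenin, 4 TCF/LEF factors and 4 feedback inhibitors that are Wnt targets. All 44 were found in the table, and 30 of them reached 1 FPKM (fragments per kilobase of exonic length, scaled to library size) in at least 1 library. RNA sequencing was done on JJ012 cells, a line from a human chondrosarcoma, and 143B cells, from a human osteosarcoma, both kept in suspension. For each line, 1 library came from untreated cells and 1 from cells given 1 mM melatonin for 72 h, so the study had 4 groups of 1 library. Suspension was shared by all groups, and each line is a single established cancer line, so a difference between the lines is not a difference between tumor types.

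Wnt proteins are secreted lipid-modified ligands that bind a Frizzled receptor together with the co-receptor LRP5 or LRP6. In the canonical pathway this stops the destruction complex of AXIN and APC from marking beta-catenin for degradation, and beta-catenin then acts with TCF/LEF factors on target genes, among them the feedback inhibitors AXIN2 and ZNRF3. In the skeleton the pathway drives osteoblast formation and restrains chondrocyte differentiation, while ligands such as WNT5A and WNT5B also signal without beta-catenin through ROR receptors.

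Depth was similar in the 4 libraries, between 15889564 and 19218343 counts, so a floor of 3 counts lay between 0.156 and 0.189 CPM (counts scaled to the library total). The share of mitochondrially encoded counts was 6.78% in untreated and 4.35% in melatonin-treated JJ012 cells, and 1.63% and 2.46% in 143B cells. The cartilage gene COL2A1 was at 0 counts in both JJ012 libraries and ACAN was at 0.02 FPKM in both, while SOX9 was at 15.06 FPKM in untreated and 6.16 FPKM in treated JJ012 cells. The bone gene SP7 was at 0 and 1 counts in 143B cells and COL1A1 at 0.49 and 0.33 FPKM, so these defining markers of the labelled tissues were near 0. Summed FPKM of 10 chondrocyte markers was 41.41 and then 10.59 in JJ012 cells, with 3 and 2 of the markers at 1 FPKM or more, and 17.44 and 13.96 in 143B cells, with 1 in each. For 10 osteoblast markers the sums were 109.16 and 70.70 in JJ012 cells (5 and 3 at 1 FPKM or more) and 10.25 and 10.52 in 143B cells (4 in each). The 6 leukocyte markers summed to 14.54 and 6.90 FPKM in JJ012 cells (2 of the 6 at 1 FPKM or more in each library), where CD3E had 497 and 141 counts and PTPRC 42 and 4, and to 0.29 and 0.12 in 143B cells (0 in each). Epithelial markers (6 genes, CDH1 at 0 or 1 count throughout) summed to 23.31 and 15.00 FPKM in JJ012 and 47.12 and 33.15 in 143B cells, with 4, 3, 3 and 2 at 1 FPKM or more. Endothelial markers (5 genes) summed to between 0.96 and 2.61 FPKM, with at most 1 of them at 1 FPKM. The part of these shifts in the results below was not tested, and in such bulk RNA fewer cells of a type and less RNA per cell cannot be told apart.

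Sequence upstream of 4 genes is shown because these are the members with a higher level after melatonin whose promoter was in the RefSeq table. WNT9A, FZD5 and AXIN1 rose in JJ012 cells and FZD8 rose in 143B cells. Each run is the 250 bases before the gene start in GRCh38.p14, read 5′ to 3′ on the minus strand that carries the gene, and capitals mark the GC box letters GGGCGG or, from the other strand, CCGCCC. The windows are chr1:227947933-227948182 for WNT9A, chr2:207769907-207770156 for FZD5, chr16:352724-352973 for AXIN1 and chr10:35642297-35642546 for FZD8.
WNT9A: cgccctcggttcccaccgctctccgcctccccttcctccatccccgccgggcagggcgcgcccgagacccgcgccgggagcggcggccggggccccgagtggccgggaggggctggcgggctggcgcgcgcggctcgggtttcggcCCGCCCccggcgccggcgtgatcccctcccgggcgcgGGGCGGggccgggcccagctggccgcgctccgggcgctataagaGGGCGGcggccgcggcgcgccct
FZD5: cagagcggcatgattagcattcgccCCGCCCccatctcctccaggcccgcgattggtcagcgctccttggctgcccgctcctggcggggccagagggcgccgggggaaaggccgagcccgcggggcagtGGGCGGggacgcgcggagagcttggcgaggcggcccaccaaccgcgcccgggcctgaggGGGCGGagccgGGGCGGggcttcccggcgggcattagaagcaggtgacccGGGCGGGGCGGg
AXIN1: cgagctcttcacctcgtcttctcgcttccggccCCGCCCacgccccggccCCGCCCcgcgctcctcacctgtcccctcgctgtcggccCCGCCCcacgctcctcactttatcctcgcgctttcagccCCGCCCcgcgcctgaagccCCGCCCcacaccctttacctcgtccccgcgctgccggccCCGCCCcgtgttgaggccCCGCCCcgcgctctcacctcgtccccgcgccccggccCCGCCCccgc
FZD8: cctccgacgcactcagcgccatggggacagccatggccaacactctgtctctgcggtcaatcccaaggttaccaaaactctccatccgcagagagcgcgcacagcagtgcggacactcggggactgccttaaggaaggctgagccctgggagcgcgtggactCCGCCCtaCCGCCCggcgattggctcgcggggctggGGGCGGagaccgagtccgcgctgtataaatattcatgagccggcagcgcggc
The GC box letters occurred 3 times in the window of WNT9A, 6 times in FZD5 (the last run holds overlapping boxes), 8 times in AXIN1 and 3 times in FZD8, and the windows held 84.4%, 76.8%, 77.6% and 65.2% G and C. Over all members, 30 symbols matched 38 windows, of which 27 (71.1%) held a GC box, against 42.6% of all 35116 windows in the table. Those windows covered 27305 symbols, more than the 19838 protein-coding genes of the deposited table, while all 44 members are protein-coding. A share over protein-coding genes alone was not computed. As letters bound by TCF/LEF factors, CTTTGAA was searched on both strands, likewise the forms that end otherwise, namely CTTTGAT as well as the form CTTTGTA and lastly the form CTTTGTT, and none was in the 4 windows shown. They were in 3 of the 38 member windows (7.89%), those of DKK1, TCF7 and TCF7L2, against 12.0% of all windows. The DKK1 window lay at the gene start of the deposited table. Those of TCF7 and TCF7L2 belonged to other starts, 8937 and 176386 bases from it, and nearer windows of both genes held none. These are counts of letters and not of bound sites.

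The filter of 1 FPKM divides the members at a chosen cut. WNT10B lay just under it with a highest level of 0.98 FPKM and WNT3 just over it with 1.06 FPKM. Summed over members, the level was 134.17 FPKM in untreated and 163.80 in treated JJ012 cells, and 299.66 and 351.56 in 143B cells. In 143B cells SFRP1 alone held 82.85 and 132.26 FPKM of these sums, so most of their difference lay in this 1 gene. The antagonists were the group with the widest spread between the lines, with 7.85 and 4.62 FPKM in JJ012 and 87.00 and 137.76 FPKM in 143B cells. Co-receptors and ROR receptors summed to 5.23 and 9.67 FPKM in JJ012 cells and to 41.60 and 40.46 FPKM in 143B cells. Ligands summed to 33.90 and 30.76 FPKM in JJ012 and 44.05 and 40.77 FPKM in 143B cells, so for this group the sums lay close to each other although the ligands behind them differed.

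**Figure D1:**
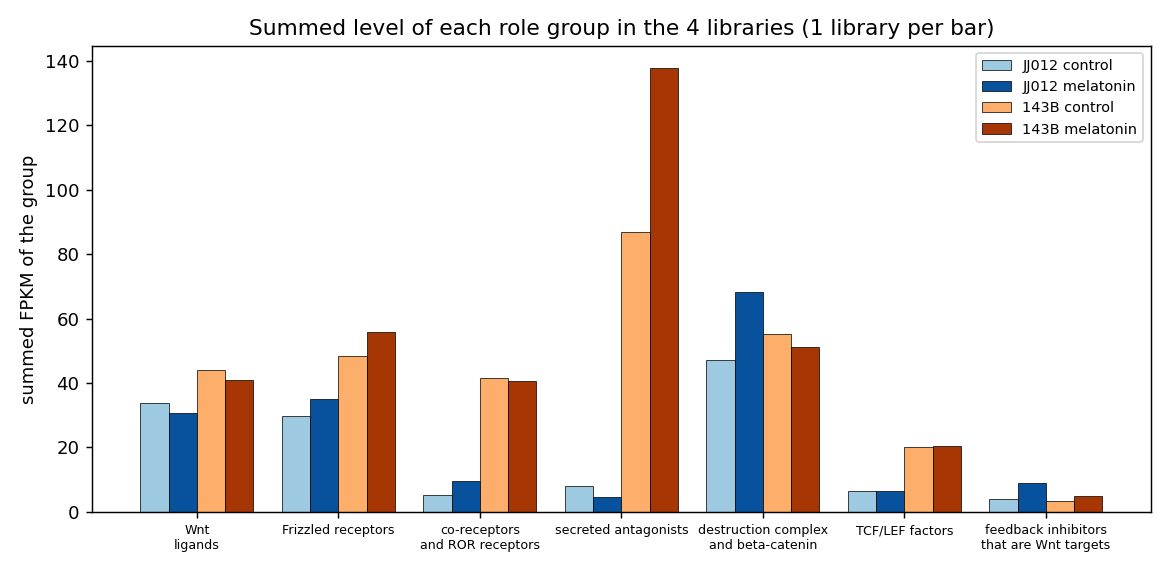
Summed FPKM (y axis) of the 7 role groups (x axis), with 1 bar for each of the 4 libraries and no error bars, since each condition had 1 library. The antagonists stand at 87.00 and 137.76 FPKM in 143B cells and at 7.85 and 4.62 FPKM in JJ012 cells.

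The 14 members under 1 FPKM in every library were WNT2, WNT4, WNT10A, WNT10B, WNT16, FZD9, ROR1, DKK1, DKK2, SFRP2, SFRP4, WIF1, NKD1 and RNF43. They had 0 to 172 counts, with a highest level of 0.98 FPKM. FZD9 and SFRP4 were at 0 counts in all 4 libraries, which allows up to the floor of 3 counts. The antagonists DKK1, DKK2, SFRP2 and WIF1 had no more than 15 counts in any library.

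The first comparison asked which members differed between melatonin-treated and untreated JJ012 cells. The log2 change was taken as log2 of (FPKM + 1) in treated over (FPKM + 1) in untreated cells, and a member was said to rise or fall at 0.58 or more, a ratio of 1.49. Of 22 members at 1 FPKM or more in either library, 7 rose and 2 fell, which is 9 members or 40.9%. Among all 15794 genes so filtered 38.2% changed, 19.6% upward and 18.6% downward, and among protein-coding genes 33.9% changed, so the share of members that changed lay near the background. Their median log2 change was 0.15 against 0.01 over all genes and 0.02 over protein-coding genes. The split of 7 higher and 2 lower depended on the scaling, being 9 and 1 on the TPM scale (50.3% of all genes changed), which moves the median gene from 0.01 to 0.27, and 7 and 5 on the CPM scale (39.5% of all genes). With 1 library per condition no test could be made, and the intervals given below cover counting error only.

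Among the ligands, the most abundant Wnt of JJ012 cells, WNT5B, fell, and WNT7B and WNT9A rose. WNT5B, a ligand mostly linked to signaling without beta-catenin, was at 19.86 FPKM (1618 counts) in untreated and 11.09 FPKM (759 counts) in treated JJ012 cells, and at 2.40 and 2.51 FPKM in 143B cells. This gave a log2 change of -0.79 in JJ012, and the CPM were 1.79-fold lower (log2 ratio -0.84, 95% interval -0.97 to -0.72). WNT9A was at 2.92 FPKM (225 counts) and 8.54 FPKM (552 counts) in JJ012 cells and at 2.07 and 2.01 FPKM in 143B cells. WNT9A, a ligand expressed in forming joints, thus rose by 1.28, with CPM 2.92-fold higher (log2 ratio 1.55, 1.32 to 1.78). WNT7B, a ligand known for promoting bone formation, was at 1.85 and 4.79 FPKM (181 and 393 counts) in JJ012 and at 15.05 and 14.36 FPKM in 143B cells. It rose by 1.02 in JJ012 (log2 CPM ratio 1.37, 1.11 to 1.63), and its treated level was still under that of either 143B library. The share of WNT5B in the summed ligand FPKM of JJ012 cells was 58.6% and then 36.1%, while that of WNT9A was 8.61% and then 27.8% and that of WNT7B 5.46% and then 15.6%. WNT6 was just under the limit at -0.53 (4.09 and 2.52 FPKM), WNT11 was at 0.10 (1.01 and 1.15 FPKM), and WNT2B (0.53 and 0.42 FPKM), WNT3 (0.16 and 0.13 FPKM) and WNT5A (0.97 and 0.71 FPKM) were under 1 FPKM in both JJ012 libraries.

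Of the Frizzled receptors, 2 of the 6 with a level in JJ012 cells rose, and 0 fell. This share of 33.3% lay near the 38.2% of all genes and 33.9% of protein-coding genes that changed. FZD5 was at 1.32 FPKM (179 counts) and 3.49 FPKM (397 counts) in JJ012 cells, a log2 change of 0.95, and at 2.27 and 1.91 FPKM in 143B cells. FZD7, a receptor of the canonical pathway, was at 5.40 and 9.79 FPKM (476 and 725 counts) in JJ012 cells, a log2 change of 0.75, and at 5.91 and 8.69 FPKM in 143B cells, a change of 0.49 that stayed under the limit. After treatment FZD7 was thus the Frizzled with the highest FPKM in JJ012 cells, where FZD2 had been highest with 9.25 FPKM untreated and 7.16 FPKM treated. FZD1 was at 4.29 and 3.82 FPKM, FZD4 at 4.16 and 4.82 FPKM, and FZD8 at 4.88 and 5.80 FPKM. FZD4 overlaps the span of PRSS23 on the other strand, which had 9586 and 3888 counts in JJ012. Whether their exons overlap was not examined. Since the strand setting of the counting is not given, how reads from any stretch shared by the 2 genes were counted is not known.

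Of the co-receptors LRP6 rose in JJ012 cells, and LRP5 had a value just short of a fall. LRP6, a co-receptor of Frizzled, was at 2.58 FPKM (515 counts) in untreated and 8.08 FPKM (1353 counts) in treated JJ012 cells, and at 14.92 and 14.16 FPKM in 143B cells. Its log2 change of 1.34 was the highest among the 22 members, with CPM 3.13-fold higher (log2 ratio 1.65, 1.50 to 1.79). LRP5, the other co-receptor and a known determinant of bone mass, was at 2.47 FPKM (294 counts) and 1.33 FPKM (133 counts) in JJ012 cells, a log2 change of -0.57, just under the limit (log2 CPM ratio -0.89, -1.20 to -0.59). The ratio of LRP6 to LRP5 in FPKM was 1.04 in untreated and 6.08 in treated JJ012 cells, against 0.690 and 0.716 in 143B cells. ROR2, a receptor for WNT5A, had 5 and 0 counts in JJ012 (0.04 and 0.00 FPKM).

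DKK3, a secreted member of the Dickkopf family, fell in JJ012 cells and was the only antagonist among the 7 that reached 1 FPKM there. It was at 7.51 FPKM (1726 counts) in untreated and 4.36 FPKM (842 counts) in treated cells, a log2 change of -0.67 with CPM 1.72-fold lower (log2 ratio -0.78, -0.90 to -0.66). The calls of DKK3 and WNT5B were lost on the TPM scale, at -0.49 and -0.56. DKK3 overlaps USP47 on the other strand, with 1234 and 1629 counts in JJ012. SFRP1, which binds Wnt ligands outside the cell, had 26 and 11 counts in JJ012 (0.29 and 0.14 FPKM).

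In the destruction complex AXIN1, the scaffold on which beta-catenin is phosphorylated, rose in JJ012 cells to the level of 143B cells. Its FPKM were 10.47 (1516 counts) in untreated and 20.67 (2515 counts) in treated JJ012 cells, and 21.39 and 21.01 in 143B cells. The log2 change in JJ012 was 0.92 (log2 CPM ratio 0.98, 0.89 to 1.07). APC, the tumor suppressor partner of AXIN, was at 2.86 and 4.28 FPKM, a log2 change of 0.45. CTNNB1, which encodes beta-catenin, had the highest level of the members in JJ012 with 33.76 and 43.32 FPKM (7630 and 8224 counts), a log2 change of 0.35. APC and CTNNB1 passed the limit on the TPM scale, at 0.80 and 0.63, and were at 0.12 and 0.00 once the trend over gene length described further on was taken off. None of the TCF/LEF factors, which bind beta-catenin in the nucleus, changed in JJ012: TCF7 was at 1.96 and 2.06 FPKM, TCF7L2 at 2.05 and 2.34 FPKM, and LEF1 at 1.45 and 1.32 FPKM. TCF7L1 stayed under the filter at 0.94 and 0.67 FPKM.

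Of the feedback inhibitors ZNRF3 rose in JJ012 cells, and AXIN2 had a value under 0 that did not pass the limit. ZNRF3, a membrane ubiquitin ligase that removes Frizzled from the cell surface, was at 2.81 FPKM (378 counts) in untreated and 8.27 FPKM (933 counts) in treated JJ012 cells. Its log2 change was 1.28, with CPM 2.94-fold higher (log2 ratio 1.56, 1.38 to 1.73). AXIN2, a widely used readout of beta-catenin activity, was at 1.22 FPKM (122 counts) and 0.52 FPKM (44 counts). The log2 change of AXIN2 was -0.55, held small by the pseudocount at this low level, and its CPM were 2.33-fold lower (log2 ratio -1.22, -1.75 to -0.71). AXIN2 passed the limit with a pseudocount of 0.1, on the CPM and TPM scales and with the length trend taken off, where it was at -0.98 (CPM), -0.71 (TPM) and -0.62 (length). On these scales 1 was added to CPM and TPM as to FPKM, unlike in the log2 CPM ratio of -1.22. RNF43, the paralog of ZNRF3, had 2 and 14 counts (0.02 and 0.14 FPKM), a CPM ratio of 8.33 with a log2 interval of 0.94 to 6.24. Of the other members under 1 FPKM, WNT2 (26 and 8 counts) and WNT10A (49 and 20 counts) had log2 CPM ratios of -1.45 (-2.80 to -0.26) and -1.04 (-1.87 to -0.26).

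**Figure D2:**
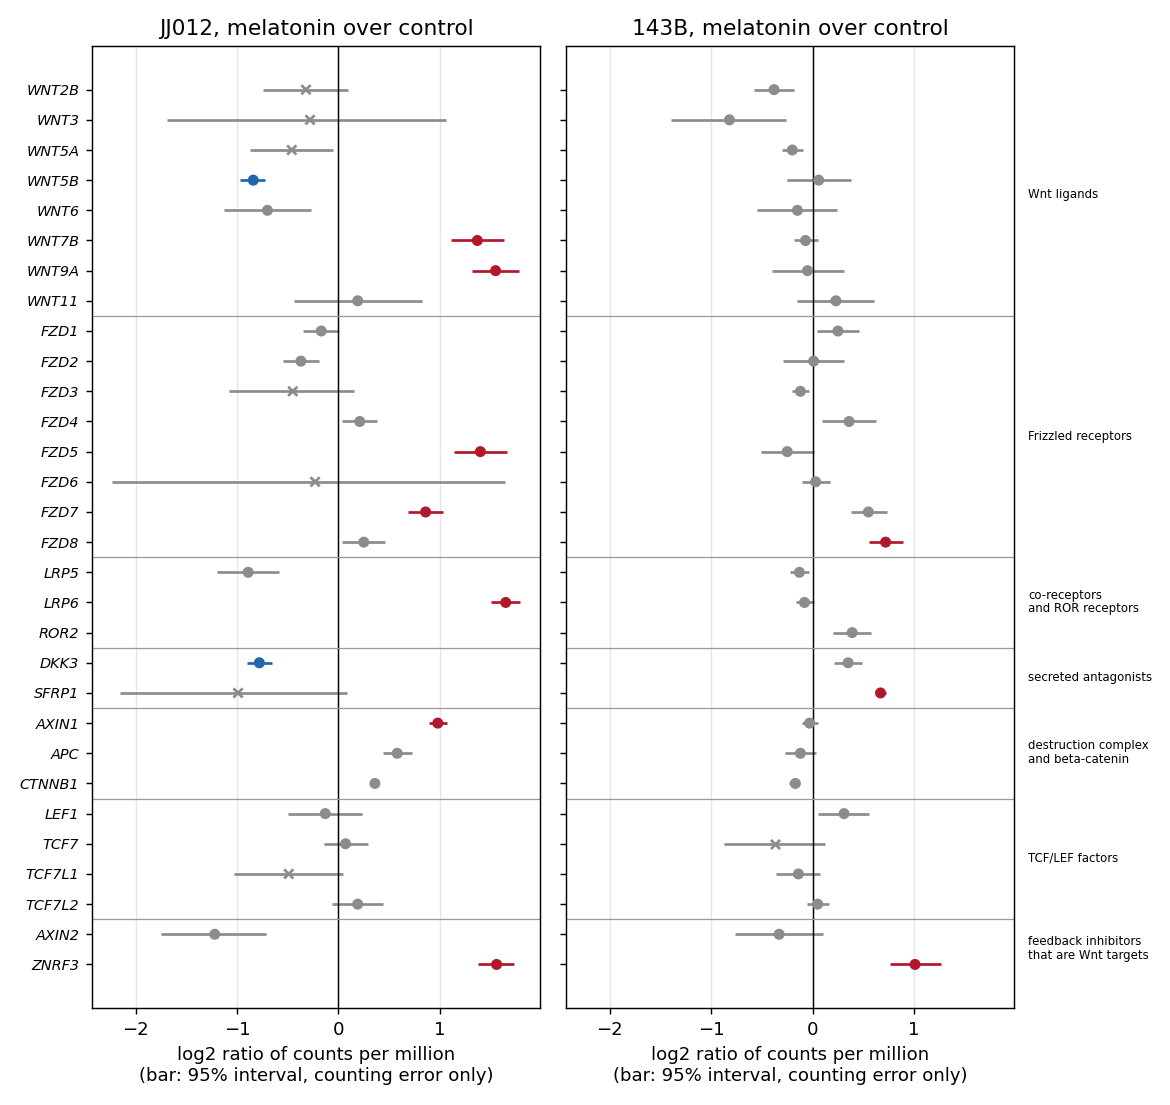
Log2 ratio of CPM, treated over untreated (x axis), with its 95% interval for counting error (bars), for the 30 members at 1 FPKM or more in at least 1 library (y axis, by role), in JJ012 (left) and 143B (right). Red and blue mark members that rose or fell on the FPKM + 1 scale, crosses mark members under 1 FPKM in both libraries of the line, and ROR2 has no point in JJ012 because it was at 0 counts after treatment. JJ012 shows 7 red and 2 blue points and 143B 3 red points.

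Positions of the members that changed are given as in the deposited table (build hg38). In JJ012 these were WNT7B at chr22:45920366-45977162, WNT9A at chr1:227918656-227947932, FZD5 at chr2:207762598-207769906, FZD7 at chr2:202033855-202038441, LRP6 at chr12:12116025-12267044, AXIN1 at chr16:287440-352723, ZNRF3 at chr22:28883572-29057488, WNT5B at chr12:1529891-1647212 and DKK3 at chr11:11956207-12009769. Of the members that rose in 143B, ZNRF3 is given above, FZD8 lies at chr10:35638247-35642296 and SFRP1 at chr8:41261962-41309473. The count of each gene covers its exons as a whole and does not separate isoforms or UTRs.

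In 143B cells the same treatment moved few members. Of 29 members at 1 FPKM or more in either 143B library, 3 rose and 0 fell, which is 10.3%. Among all 14135 genes so filtered 12.7% changed, 6.09% upward and 6.65% downward. Among protein-coding genes 6.09% changed, 3.48% upward and 2.60% downward, so 3 changed members gave a share between both backgrounds. The median log2 change of the members was -0.02, against 0.03 over all genes and 0.04 over protein-coding genes. On the TPM and CPM scales, where 19.3% and 11.4% of all genes changed, the split was 3 higher and 1 lower, the lower member being WNT3 (1.06 and 0.60 FPKM, 72 and 44 counts), a canonical ligand.

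SFRP1 carried the largest difference in level. It was at 82.85 FPKM (6231 counts) in untreated and 132.26 FPKM (10745 counts) in treated 143B cells, a log2 change of 0.67 with CPM 1.60-fold higher (log2 ratio 0.67, 0.63 to 0.72). SFRP1 made up 95.2% and 96.0% of the summed antagonist FPKM of 143B cells. FZD8, a Frizzled of the canonical pathway, was at 7.32 and 12.05 FPKM (471 and 838 counts), a log2 change of 0.65 (log2 CPM ratio 0.72, 0.56 to 0.89). FZD8 lost its call once the length trend was taken off, at 0.58 after rounding but just under the limit before it. ZNRF3 was at 1.67 FPKM (186 counts) and 3.38 FPKM (406 counts), with a log2 change of 0.71 and CPM 2.02-fold higher (log2 ratio 1.01, 0.76 to 1.27).

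ZNRF3 was the only member past the limit in both lines, and its call in 143B was lost with a filter of 5 FPKM or a limit of 1. FZD7 also had log2 CPM ratios above 0 in both, 0.86 (0.69 to 1.03) in JJ012 and 0.55 (0.38 to 0.73) in 143B. The share of all genes that rose in both lines was not computed. ZNRF3-AS1, on the other strand, had 4, 7, 0 and 1 counts in the 4 libraries. Since the strand setting of the counting is not given, how reads from any stretch shared with ZNRF3 were counted is not known.

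The other members of 143B cells with a level stayed under the limit. The ligands WNT7B (15.05 and 14.36 FPKM) and WNT5A (13.14 and 11.46 FPKM) made up most of the ligand FPKM, with shares of 34.2% and 29.8% in untreated cells. LRP5 was at 21.61 and 19.77 FPKM, AXIN1 at 21.39 and 21.01 FPKM, CTNNB1 at 30.11 and 26.71 FPKM, and TCF7L2 at 11.83 and 12.24 FPKM. Of the ligands with less, WNT2B was at 2.24 and 1.72 FPKM, WNT6 at 4.06 and 3.66 FPKM, and WNT11 at 2.79 and 3.27 FPKM. FZD1 was at 3.02 and 3.58 FPKM, FZD2 at 3.00 and 3.02 FPKM, and FZD4 at 1.64 and 2.10 FPKM. So these ligands and receptors had a low but measurable level in both 143B libraries. DKK3 was at 3.82 and 4.87 FPKM and APC at 3.80 and 3.51 FPKM. LEF1 was at 2.64 and 3.27 FPKM, TCF7L1 at 5.08 and 4.60 FPKM, and TCF7, under the filter, at 0.49 and 0.38 FPKM. TCF7L2 was thus the TCF/LEF factor with the highest FPKM in both 143B libraries. FZD6 was at 13.66 and 13.97 FPKM, FZD3 at 11.51 and 10.62 FPKM, and ROR2 at 4.27 and 5.60 FPKM. AXIN2 was at 1.20 and 0.95 FPKM (99 and 85 counts), a log2 change of -0.17 whose CPM interval (-0.77 to 0.10) includes 0. Log2 changes of the 26 members that did not pass the limit lay between -0.36 for WNT3 and 0.49 for FZD7. NKD1, an inhibitor induced by Wnt signaling, was under 1 FPKM with 125 and 172 counts and had a log2 CPM ratio of 0.35 (0.01 to 0.69).

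The lines were then compared untreated, which asks where JJ012 and 143B cells differ before melatonin. This comparison uses the same untreated JJ012 and 143B libraries as the responses above, so their values are not independent of each other. Of 30 members, 5 were higher in JJ012 cells and 14 lower, which is 63.3% past the limit. The background was 68.7% of all genes (41.3% higher and 27.4% lower in JJ012) and 64.6% of protein-coding genes, so the share of members that differed lay near it. The median of the members was -0.54 against 0.29 over all genes. With TMM factors, which scale each library on its middle genes, the median gene was at 0.01, the members split into 4 higher and 18 lower, and 33.6% of all genes were higher and 34.2% lower (67.8% in all).

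The lines differed in which ligand of the WNT5 pair was the more abundant, WNT5B in JJ012 and WNT5A in 143B cells. WNT5B stood at 19.86 FPKM (1618 counts) in JJ012 and 2.40 FPKM (162 counts) in 143B cells, a log2 difference of 2.62, with CPM 8.26-fold higher in JJ012. WNT5A, its close paralog, was at 0.97 FPKM (134 counts) in JJ012 and 13.14 FPKM (1494 counts) in 143B cells, a log2 difference of -2.84, with CPM 13.5-fold lower in JJ012. The FPKM of WNT5B were 20.5 and 15.6 times those of WNT5A in untreated and treated JJ012 cells, and those of WNT5A 5.48 and 4.57 times those of WNT5B in 143B cells. Both treated libraries therefore kept the order of their line. WNT7B (log2 difference -2.49), WNT2B (-1.08), WNT11 (-0.92) and WNT3 (-0.83) were lower in JJ012 cells, while WNT6 (4.09 and 4.06 FPKM) and WNT9A (2.92 and 2.07 FPKM) were under the limit. WNT2 had 26 counts in JJ012 and 0 in 143B cells, at least 7.17-fold higher CPM in JJ012 against the floor of 3 counts per library. Among the other members under 1 FPKM, WNT10A (49 and 20 counts, log2 CPM ratio 1.02, 0.24 to 1.85) and WNT10B (49 and 10 counts, 2.02, 1.02 to 3.17), both canonical ligands, had the higher value in JJ012. ROR1, a receptor kinase related to ROR2 (18 and 85 counts, -2.51, -3.34 to -1.77), and NKD1 (10 and 125 counts, -3.92, -5.01 to -2.99) had the lower value there.

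Frizzled receptors were divided between the lines. FZD6 was at 0.09 FPKM (7 counts) in JJ012 and 13.66 FPKM (882 counts) in 143B cells, with CPM 152.4-fold lower in JJ012 and a log2 interval of -8.57 to -6.20. FZD3 was at 0.23 FPKM (62 counts) and 11.51 FPKM (2521 counts), 49.2-fold lower. FZD6 and FZD3 are receptors tied to planar cell polarity, and both were near 0 in treated JJ012 cells too, at 0.08 and 0.17 FPKM. FZD2 (9.25 and 3.00 FPKM, log2 difference 1.36) and FZD4 (4.16 and 1.64 FPKM, 0.97) were higher in JJ012 cells. FZD1, FZD5, FZD7 and FZD8 were under the limit, at 0.40, -0.50, -0.11 and -0.50.

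The antagonists and co-receptors also separated the lines. SFRP1 was at 0.29 FPKM (26 counts) in JJ012 and 82.85 FPKM (6231 counts) in 143B cells, a log2 difference of -6.02, with CPM 289.9-fold lower in JJ012 (log2 ratio -8.18, -8.79 to -7.63). DKK3 was at 7.51 and 3.82 FPKM, a log2 difference of 0.82 that was lost on the TPM scale and with TMM factors, and made up 95.7% of the antagonist FPKM of untreated JJ012 cells. LRP5 (2.47 and 21.61 FPKM, -2.70), LRP6 (2.58 and 14.92 FPKM, -2.15) and ROR2 (0.04 and 4.27 FPKM, -2.34) were all lower in JJ012 cells. The ratio for ROR2 in CPM was 96.5-fold lower and rested on 5 counts in JJ012.

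Inside the cell the lines differed less in beta-catenin than in the factors it binds. CTNNB1 was at 33.76 FPKM in JJ012 and 30.11 FPKM in 143B cells, APC at 2.86 and 3.80 FPKM, both under the limit, and AXIN1 at 10.47 and 21.39 FPKM (-0.96). TCF7L2 (2.05 and 11.83 FPKM, -2.07) and TCF7L1 (0.94 and 5.08 FPKM, -1.65) were lower in JJ012 cells, and TCF7 (1.96 and 0.49 FPKM, 0.99) was higher. TCF7 overlaps SKP1 on the other strand, with 1152 counts in JJ012 and 374 in 143B. LEF1 was at 1.45 and 2.64 FPKM (-0.57), AXIN2 at 1.22 and 1.20 FPKM (0.01) and ZNRF3 at 2.81 and 1.67 FPKM (0.51).

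**Figure D3:**
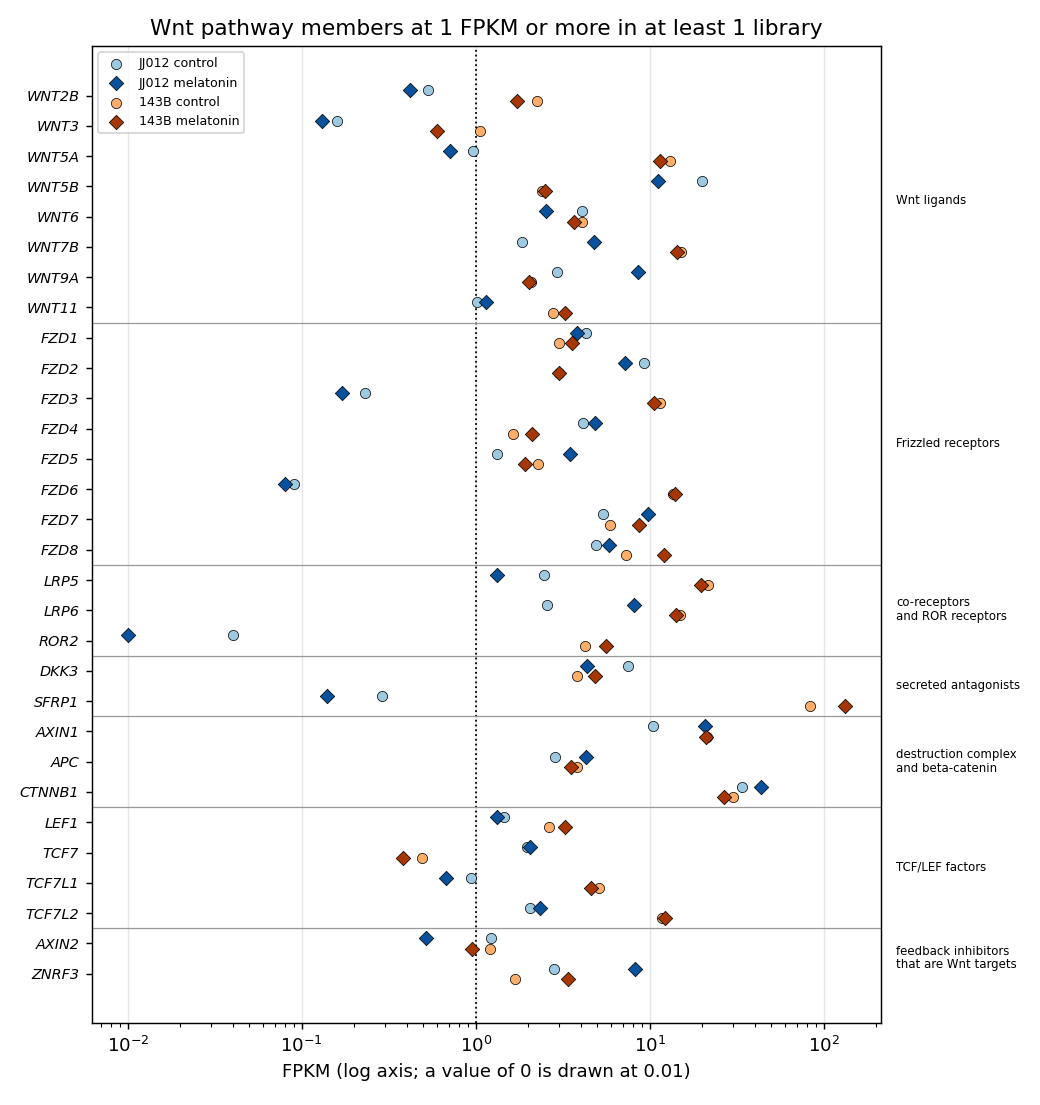
FPKM on a log axis (x) for the 30 members at 1 FPKM or more in at least 1 library (y, by role), with circles for untreated and diamonds for melatonin-treated cells, JJ012 in blue and 143B in orange, and a dotted line at 1 FPKM. FZD3, FZD6, ROR2 and SFRP1 lie under 1 FPKM in both JJ012 libraries and between 4.27 and 132.26 FPKM in both 143B libraries.

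The response of each member was then set side by side in the 2 lines. The log2 CPM ratio in JJ012 less that in 143B was computed for the 31 members with at least 10 counts in every library, with an interval from the 4 counts. The interval left out 0 for 19 members, 9 above and 10 below, against 65.8% of all genes (32.9% above and 32.9% below) and 69.3% of protein-coding genes, so many genes differ at this depth and the counting error alone is a low bar. LRP6 differed by 1.72 (1.55 to 1.89), FZD5 by 1.65 (1.29 to 2.01), WNT9A by 1.59 (1.18 to 2.00), WNT7B by 1.44 (1.16 to 1.72) and AXIN1 by 1.01 (0.89 to 1.13), all with the higher value in JJ012. SFRP1 differed by -1.66 (-2.68 to -0.65), DKK3 by -1.14 (-1.32 to -0.95), WNT5B by -0.91 (-1.23 to -0.58), AXIN2 by -0.89 (-1.54 to -0.24) and LRP5 by -0.76 (-1.07 to -0.46), with the lower value in JJ012. ZNRF3, which rose in both lines, differed by 0.54 (0.24 to 0.84). In the treated libraries the log2 difference of JJ012 from 143B on the FPKM + 1 scale was -0.02 for AXIN1 and -0.74 for LRP6, against -0.96 and -2.15 in the untreated ones.

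The changes in JJ012 cells followed gene length across the transcriptome, which touches every member. Over protein-coding genes Spearman's rho between exonic length and log2 change was 0.40 in JJ012 (11534 genes) and -0.13 in 143B (10878 genes), given as a description, since the genes share the same 2 libraries. In 4 bins of equal size, from the shortest to the longest genes, the median log2 change in JJ012 was -0.33, -0.04, 0.14 and 0.32. Among members rho was 0.21 in JJ012 (22 genes) and -0.19 in 143B (29 genes). With the running median over length taken off, all 9 calls in JJ012 were kept and LRP5 and AXIN2 were added as lower, a split of 7 higher and 4 lower with 34.5% of all genes past the limit. LRP6 was then at 1.05, WNT9A at 1.34, ZNRF3 at 1.13, AXIN1 at 0.67 and DKK3 at -1.02.

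**Figure D4:**
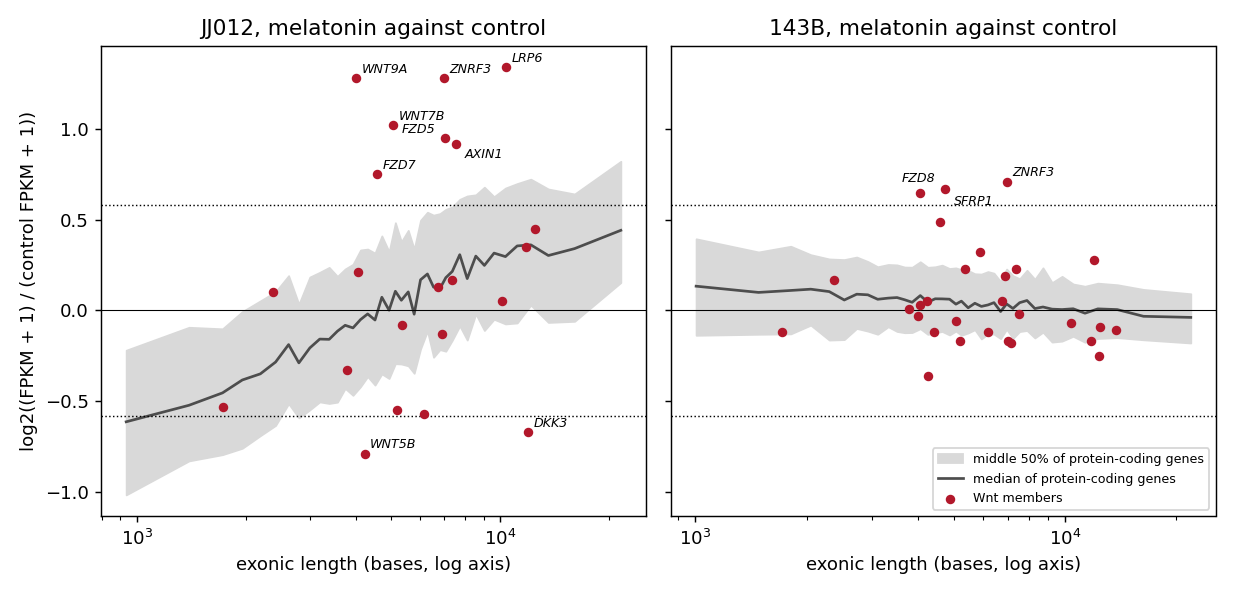
Log2 change on the FPKM + 1 scale (y axis) against exonic length in bases (log x axis) for the members at 1 FPKM or more in either library (red points, those past the dotted limits of 0.58 named), in JJ012 (left) and 143B (right). The line and band give the median and middle 50% of protein-coding genes along length, in finer bins than those of the text. In JJ012 the median runs from -0.61 in the bin of shortest genes to 0.44 in that of the longest.

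Of 80 further pathway genes, 48 had a level in JJ012 cells, and 11 of these rose and 12 fell. That is 47.9%, against 38.2% of all genes and 33.9% of protein-coding genes. The 3 with the largest rise were DAAM1 (4.05 and 15.05 FPKM, log2 change 1.67), a formin of the planar polarity branch, BCL9L (3.96 and 13.63 FPKM, 1.56), a beta-catenin cofactor, and MYC (2.86 and 10.20 FPKM, 1.54), a growth-promoting Wnt target. The 3 with the largest fall were MMP7 (57.44 and 4.51 FPKM, -3.41), a metalloproteinase and Wnt target, KREMEN1 (8.87 and 3.18 FPKM, -1.24), a receptor for Dickkopf proteins, and PTK7 (12.64 and 5.56 FPKM, -1.06), a pseudokinase co-receptor. The targets MYC and MMP7 thus moved in opposite directions in the same pair of libraries. In 143B cells 55 of the 80 had a level, 0 rose and 1 fell (1.82%, against 12.7% of all genes and 6.09% of protein-coding genes), the antagonist FRZB (1.15 and 0.24 FPKM, 48 and 11 counts, -0.79). Between the untreated lines 58 were compared, 12 higher and 18 lower in JJ012 cells, which is 51.7% against 68.7% of all genes and 64.6% of protein-coding genes.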

How the data were processed

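RNA of the 4 groups was measured by poly(A) RNA sequencing (paired ends), with 1 library per group. The authors deposited 1 table with whole-number counts per gene, without normalization, and FPKM, which scale the same counts by exonic length and library total (recomputing them gave a largest difference of 0.00500). Columns were matched to samples through the line's name, with the suffix T taken to mean melatonin. The submitters' processing notes name cutadapt 1.9.1, HISAT2 2.2.1, HTSeq 0.6.1, DESeq2 and hg38. The strand setting of the counting is not given in the sources used here.

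Changes were log2((FPKM + 1)/(FPKM + 1)), for genes at 1 FPKM or more in at least 1 of both libraries, computed over the whole table and counted at 0.58. Changes on the CPM and TPM scales had 1 added in the same way. Single genes also got the ratio of CPM with an exact Clopper-Pearson 95% interval for counting error. Without replicates edgeR's quasi-likelihood test could not be used, and no p-value is given. TMM factors came from edgeR 4.0.16 and size factors from DESeq2 1.42.0 (R 4.3.3), the rest from Python 3.11.15, numpy 2.4.6, pandas 2.3.3, scipy 1.17.1 and matplotlib 3.10.9. The trend over length was a running median of 501 genes. Types of genes came from GENCODE 29, which covered 94.3% of the table. Promoter sequences came from RefSeq (GRCh38.p14). The procedures were tested on simulated counts.

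Every member at 1 FPKM or more in a library is given with its values, the others by their range of counts, and singly where the counting interval left out 0. Of the further pathway genes, the 3 with the largest rise and fall in each line are named, while 2 listed symbols were not found in the table. The members and lists were chosen with earlier results of these data known. Alternatives were another pseudocount, filter, limit, scaling and the length trend.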

Additional observations from a re-analysis of the deposited data

Results flagged for a closer look

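Both results here have opposite signs in the 2 lines, with intervals for counting error that leave out 0 in each. Over all filtered genes such intervals left out 0 for 72.2% in JJ012 and 52.0% in 143B cells. For protein-coding genes the shares were 80.3% and 59.3%. The share of genes that also had opposite signs was not computed, so neither member is called unusual. The difference between the lines was not tested, since each condition had 1 library. DKK3 had a log2 CPM ratio of -0.78 in JJ012 and 0.35 in 143B cells, a difference of -1.14. With the trend over gene length taken off, its log2 change was -1.02 in JJ012 and 0.28 in 143B cells. CTNNB1 had a log2 CPM ratio of 0.36 in JJ012 and -0.17 in 143B cells, a difference of 0.53. With the trend taken off, CTNNB1 was at 0.00 in JJ012 and -0.17 in 143B cells, so its value in JJ012 was no larger than that of genes of its length.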

How the results depend on the processing

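No member reversed its direction among those past the limit, under any alternative. No paired analysis was possible because each group had 1 library, and for the same reason no library could be left out. A limit of 1 left 4 members changed in JJ012 (4 higher and 0 lower: WNT7B, WNT9A, LRP6 and ZNRF3), 18.2% against 14.7% of all genes at that limit. In 143B it left 0 changed (0 higher), against 4.45% of all genes and 0.653% of protein-coding genes. In JJ012 the share of protein-coding genes past it was 11.0%. Between the untreated lines 13 members passed the limit of 1 (43.3%, against 47.2% of all genes and 42.8% of protein-coding genes). Of these, 2 were higher in JJ012 (6.67%, against 28.7% of all genes) and 11 lower (36.7%, against 18.5%). The count of members lower in JJ012 after melatonin was 2 as reported (9.09%, against 18.6% of all genes). It was 5 with a pseudocount of 0.1 FPKM (22.7%, against 24.1%) and 5 on the CPM scale (22.7%, against 19.4%). With the length trend taken off it was 4 (18.2%, against 16.4%), and on the TPM scale 1 (4.55%, against 15.6%). In 143B, 1 member (WNT3) was lower with a pseudocount of 0.1 FPKM and on the TPM and CPM scales, against 0 as reported. That is 3.45%, against 10.1%, 10.7% and 5.07% of all genes in these settings. A filter of 5 FPKM left 3 members higher in JJ012 between the untreated lines, against 5. The shares were 18.8% of the members and 40.5% of all genes, against 16.7% and 41.3% as reported. For the difference in response, the FPKM + 1 scale with a limit of 0.58 gave 8 members (5 above and 3 below 0), and the same with the length trend taken off gave 9 (5 above and 4 below), against 19 (9 above and 10 below) by the counting interval. The share of all genes past that limit was not computed, so these counts have no background beside them. TMM factors and DESeq2 size factors kept all 9 calls in JJ012 and all 3 in 143B. Of 81 changes of single members, 41 moved beyond their counting interval on the TPM scale and 11 with DESeq2 size factors. Low counts limit the precision, as for WNT11 in JJ012, where 46 and 44 counts gave a log2 CPM ratio of 0.19 with an interval of -0.44 to 0.82.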
